A study of Mus musculus with 6 samples.

Results

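Aminoacyl-tRNA synthetases are the enzymes that join each amino acid to its transfer RNA. The list held 36 mouse genes, 20 for cytosolic enzymes and 16 for mitochondrial enzymes, whose symbols end in 2. A gene was found by its Ensembl gene ID in the deposited tables, which identified 32 of the 36 genes, 19 cytosolic and 13 mitochondrial, among 12235 genes with a level. Expression was compared between Hspa9 cKO and WT DN3 thymocytes, with 3 libraries from each genotype. DN3 thymocytes are early T cell precursors of the thymus, sorted here as cells with CD25 and without CD4, CD8, CD44 or the markers of other lineages. The mice were 5 weeks old and untreated in both groups. Hspa9 encodes GRP75, the HSP70 chaperone of the mitochondrial matrix, and the study asked what it does in early thymocyte development. The sources used here do not name the Cre driver, the cells in which it acts, or any allele that WT mice carried. The labels do not say that the libraries came from separate animals, so p-values cover the spread among these libraries alone, which may be technical.

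A synthetase recognises 1 amino acid and its transfer RNAs, and the charged transfer RNA then delivers the amino acid to the ribosome. Cytosolic synthetases serve the ribosomes of the cytoplasm, and 8 of them sit in a multi-synthetase complex held together by the scaffold proteins of Aimp1, Aimp2 and Eef1e1. Mitochondria translate their own messages with a separate set of enzymes, which are encoded in the nucleus and imported. Uncharged transfer RNA activates the kinase GCN2, and the transcription factor ATF4, made when GCN2 or related kinases are active, is known to raise many cytosolic synthetase genes.

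Promoters from RefSeq (GRCm38.p6, 250 bases before to 50 after a gene's start) were at hand for 27 of the 36 genes, and are shown because the C/EBP-ATF response element, to which ATF4 binds with C/EBP proteins, lies in several of them. The motif searched was TGATGNAA on both strands, which reads TTNCATCA on the reverse strand, and no other motif was searched. It was found for 5 of 13 cytosolic genes and 0 of 14 mitochondrial genes, against 3.97% of 32851 promoters in all. The units differ, since a synthetase gene counted if any of its promoters matched, whereas the 32851 promoters belong to 27025 genes. The genes with no entry were Cars, Hars, Lars, Nars, Rars, Vars, Wars, Hars2 and Pars2. Each window below runs 5′ to 3′ on the strand of the gene, with the motif in capitals.
Iars: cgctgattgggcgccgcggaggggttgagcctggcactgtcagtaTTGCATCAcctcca
Yars: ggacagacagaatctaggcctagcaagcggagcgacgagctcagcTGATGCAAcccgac
Gars: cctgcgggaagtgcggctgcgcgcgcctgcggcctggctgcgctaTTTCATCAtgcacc
Tars: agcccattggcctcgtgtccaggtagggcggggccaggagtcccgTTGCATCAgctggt
Aars, distal match: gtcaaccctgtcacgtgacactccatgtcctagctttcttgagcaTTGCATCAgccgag
Aars, proximal match: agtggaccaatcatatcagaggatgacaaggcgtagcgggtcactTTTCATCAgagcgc

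These windows lie on GRCm38.p6 at chr13:49682092-49682150 (plus strand) for Iars, chr4:129189861-129189919 (plus) for Yars, chr6:55037926-55037984 (plus) for Gars, chr15:11399660-11399718 (minus) for Tars, and chr8:111033685-111033743 and chr8:111033806-111033864 (plus) for Aars. Counted from the RefSeq start, the match began at base 8 for Iars, at base 4 for Yars and at base 10 for the proximal match of Aars. It began 30 bases upstream of that start for Gars, 15 bases upstream for Tars and 112 bases upstream for the distal match of Aars. The deposited starts differ from these. The first ones listed for Iars, Yars and Aars begin at 49682100, 129189760 and 111033144, upstream of every match shown for these genes. All 5 genes belong to the list of 12 cytosolic synthetases often named as ATF4 targets, of which 8 had a promoter. None of the 5 other cytosolic synthetase genes that had a promoter held the motif there. A match is a run of letters and not a measured binding site.

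The unit is FPKM, in which fragments are divided by transcript length and by the mapped total of the library, and which the authors deposited for transcript starts, transcript ends and splicing events. A gene's level was the sum over its starts, and events not listed in a library were counted as 0, which can be a failed estimate. Levels were compared on log2(FPKM + 1) with limma in 9198 genes that reached 1 FPKM in 3 or more libraries, with Benjamini-Hochberg adjustment over all of them. A log2 change is Hspa9 cKO over WT on that scale, and it understates changes of genes with low levels. A gene was called at an adjusted p under 0.05.

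No counts are in the tables, and read depth is therefore unknown. Total Hspa9 was 116.8 ± 6.91 FPKM in Hspa9 cKO and 116.1 ± 9.27 FPKM in WT (SD, n = 3 each), but transcripts that include exons 2 to 4 made up 21.3, 13.6 and 22.9% of those spanning the region in Hspa9 cKO, against 100, 89.9 and 86.1% in WT. All 10 DN3 markers were listed, with summed levels of 2198 to 2348 FPKM in Hspa9 cKO and 1385 to 1461 FPKM in WT, and 7 of the 10 were called higher. Of 4 markers of later thymocytes, Cd8b1 was called lower, and the 4 summed to 3.15 to 4.60 FPKM in Hspa9 cKO and 7.06 to 11.2 FPKM in WT. Of 4 markers of the earlier DN1 and DN2 stages, 3 were listed, with sums of 7.25 to 9.65 FPKM in Hspa9 cKO and 8.09 to 9.93 FPKM in WT. The B cell markers Cd79a, Ebf1 and Ms4a1, the myeloid marker Itgam, the innate lymphoid markers Ncr1 and Klrb1c and the epithelial markers Foxn1 and Krt8 were not listed in any library. Cd79b (1 of 4 B cell markers listed), Nkg7 (with Il7r, 1 of 2 innate lymphoid markers listed of 4) and Epcam (1 of 3 epithelial markers listed) were called higher, with sums of 15.3 to 18.3, 65.8 to 82.3 and 36.7 to 43.0 FPKM for their lists in Hspa9 cKO, against 9.75 to 12.6, 40.7 to 44.7 and 27.2 to 29.1 FPKM in WT. Of 4 listed myeloid markers of 5, the sum was 13.5 to 15.5 FPKM in Hspa9 cKO and 8.92 to 15.0 FPKM in WT, and 1 of 3 erythroid markers was listed, at 0.190 FPKM in 1 WT library. Of 5 genes that respond to cell handling, 3 were listed, summing to 59.0 to 72.4 FPKM in Hspa9 cKO and 126.2 to 136.9 FPKM in WT. Fos and Dusp1 were called lower, and Egr1 was not called, with a log2 change of 0.15 (limma, adjusted p = 0.447). The part of these differences in the synthetase results was not tested. A change in a sorted population can reflect fewer cells of a type or less RNA per cell, and these cannot be told apart.

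A total of 6 synthetase genes were called higher in Hspa9 cKO and 0 were called lower. The 6 were the cytosolic genes Iars, Cars, Sars, Yars and Nars and the mitochondrial gene Hars2, at 5 of 19 cytosolic and 1 of 13 mitochondrial genes. All 32 genes were at 1 FPKM or more in every library, so the filter on low levels removed none. Of all genes tested, 8.40% were called higher and 5.61% lower, 14.0% in either direction. These were 773 genes higher and 516 lower, against 610 higher and 696 lower after rescaling by trimmed means, under which Hars was called lower. On leaving out 1 library, 3 cytosolic genes were called higher without Hspa9 cKO replicate 2, Hspa9 cKO replicate 3, WT replicate 1 or WT replicate 2, and 4 without Hspa9 cKO replicate 1 or WT replicate 3, while 1 was called lower without WT replicate 2. Over all genes 245, 272 and 233 were then called higher, and 217, 222 and 202 lower, without Hspa9 cKO replicates 1, 2 and 3. Without WT replicates 1, 2 and 3 these counts were 398, 514 and 462 higher and 220, 323 and 300 lower. At an unadjusted p under 0.05 in limma, 8 cytosolic genes were higher and 1 lower, and 2 mitochondrial genes were higher and 0 lower. Of all 9198 genes tested, 1754 were higher and 1131 lower at that threshold. The 3 Hspa9 cKO libraries lay above all 3 WT libraries for 8 cytosolic and 4 mitochondrial genes, against 23.2% of all genes tested, and below them for 1 cytosolic and 0 mitochondrial genes, against 15.7%. The median log2 change was 0.27 over the cytosolic genes and 0.11 over the mitochondrial genes, beside 0.06 over all genes tested. The cytosolic median was 0.17 without Hspa9 cKO replicate 2. The mitochondrial median was -0.012 at a filter of 5 FPKM, -0.0079 from transcript ends and -0.0077 from annotated exon edges, and it was 0.052 and 0.060 under 2 rescalings and 0.013 from the single highest start. The mitochondrial share called higher was near that of all genes, and the difference between the cytosolic and mitochondrial counts was not tested.

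**Figure D1:**
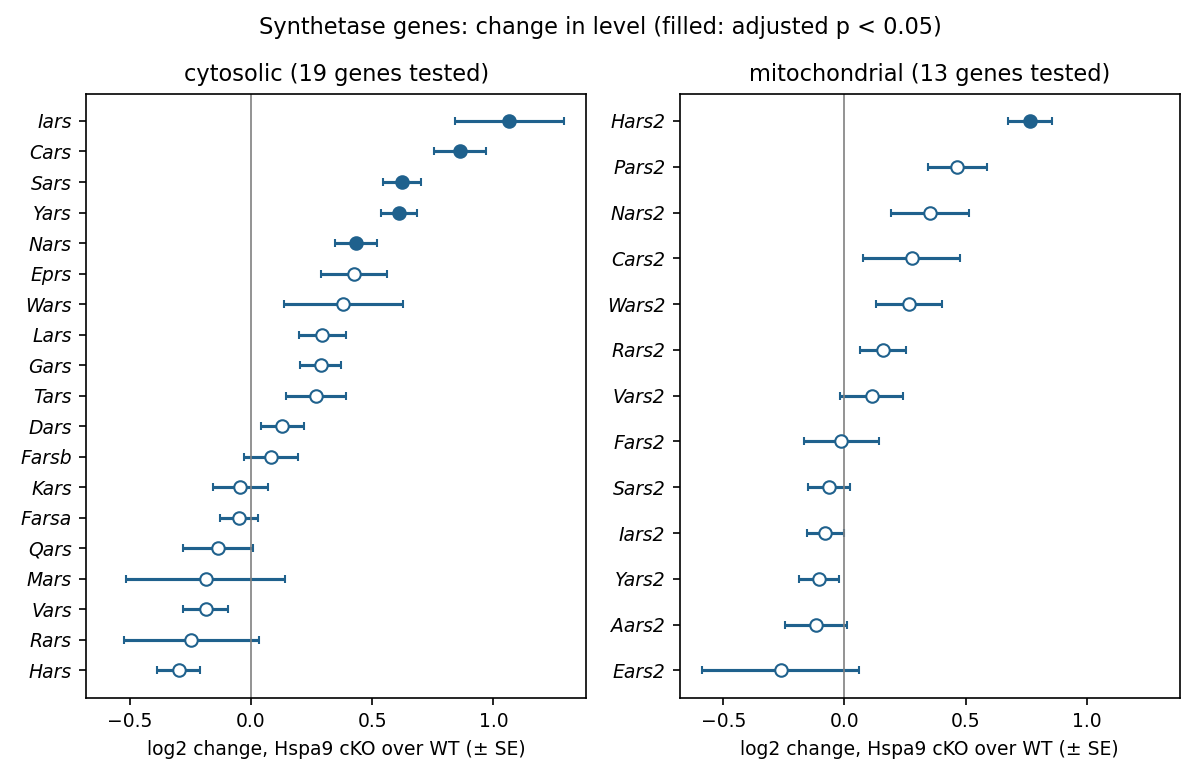
Log2 change in level, Hspa9 cKO over WT, with its standard error, for the 19 cytosolic (left) and 13 mitochondrial (right) synthetase genes tested, on log2(FPKM + 1) with limma. Filled points mark the 6 genes called, all of them right of 0, and the cytosolic values run from -0.30 for Hars to 1.07 for Iars.

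Sars, Yars and Cars were the cytosolic genes with the smallest adjusted p, and their groups stood well apart. Sars (ENSMUSG00000068739; mm10 chromosome 3, 108424865 to 108445209, minus strand), which charges the serine transfer RNAs and also supplies the serine from which selenocysteine is made, had 39.9, 40.3 and 36.4 FPKM in Hspa9 cKO replicates 1 to 3, against 23.7, 26.1 and 24.8 FPKM in WT replicates 1 to 3. The lowest Hspa9 cKO library was far above the highest WT library, and the log2 change was 0.62 ± 0.08 (SE; limma, adjusted p = 0.00688). Yars (ENSMUSG00000028811; chromosome 4, 129189760 to 129219607, plus strand), the tyrosine enzyme, had 37.5, 39.0 and 36.4 FPKM in Hspa9 cKO and 23.6, 23.5 and 25.8 FPKM in WT. Its libraries were as tightly grouped as those of Sars, with a log2 change of 0.61 ± 0.07 (SE; limma, adjusted p = 0.00630). Cars (ENSMUSG00000010755; chromosome 7, 143557230 to 143600090, minus strand), which charges cysteine transfer RNA, was at 18.4, 22.5 and 19.6 FPKM in Hspa9 cKO, against 11.0, 9.63 and 11.2 FPKM in WT. The means were apart by several times the SD of either group, with a log2 change of 0.86 ± 0.11 (SE; limma, adjusted p = 0.00666).

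Nars (ENSMUSG00000024587; chromosome 18, 64499647 to 64516652, minus strand), the asparagine enzyme, rose less. It had 42.3, 49.1 and 49.7 FPKM in Hspa9 cKO and 35.9, 33.4 and 34.2 FPKM in WT, with a log2 change of 0.43 ± 0.09 (SE; limma, adjusted p = 0.0275). Hspa9 cKO replicate 1 was the lowest of its group and still lay above every WT library. The call was lost on leaving out any 1 library but Hspa9 cKO replicate 1, with adjusted p between 0.0648 and 0.0938 for those 5 libraries.

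**Figure D2:**
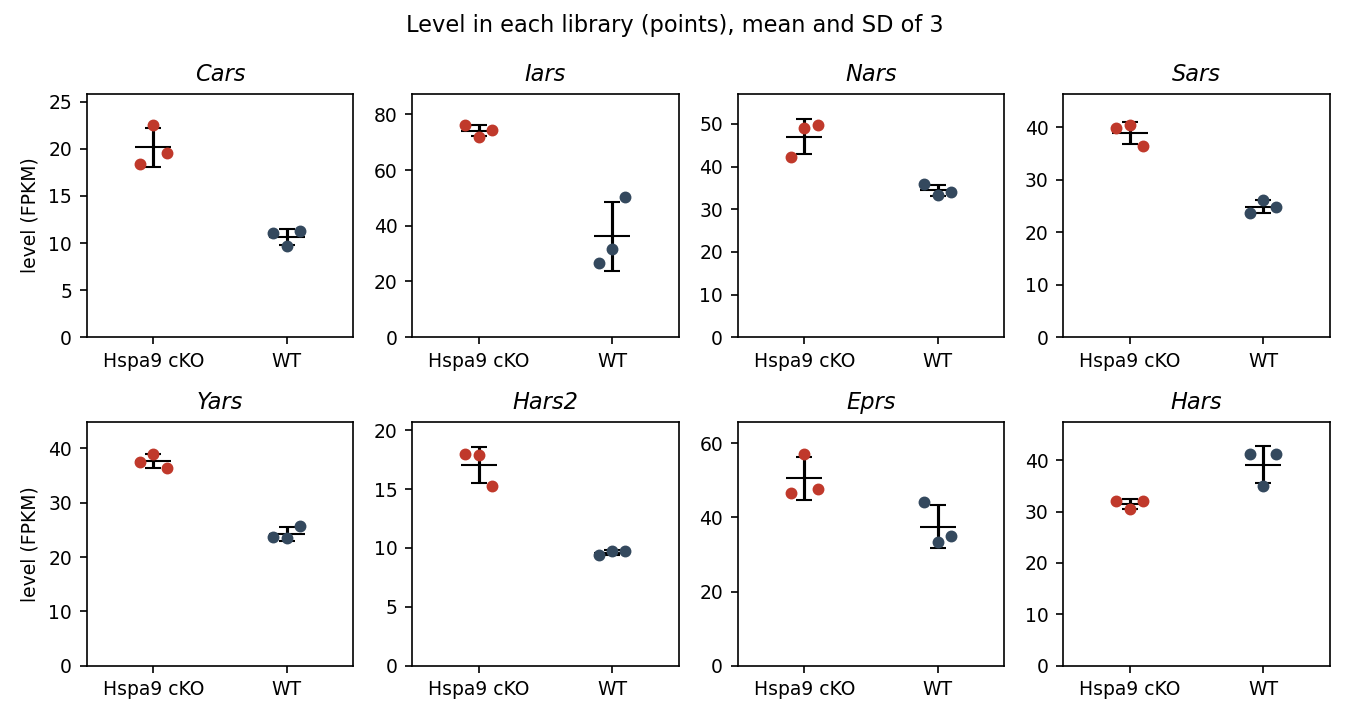
Level in FPKM of the 6 called synthetase genes and of Eprs and Hars, which were not called, in each of 3 Hspa9 cKO (left, red) and 3 WT (right, grey) libraries; bars give the mean and SD. The groups do not overlap in any of the 8 panels, and Hars is the gene that lies lower in Hspa9 cKO.

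Iars (ENSMUSG00000037851; chromosome 13, 49682100 to 49734267, plus strand), the isoleucine enzyme of the multi-synthetase complex, showed the largest change in level and the least even one. Its summed starts were at 76.1, 72.0 and 74.4 FPKM in Hspa9 cKO and 26.5, 31.7 and 50.2 FPKM in WT. The log2 change was 1.07 ± 0.22 (SE, limma, adjusted p = 0.0306). The Hspa9 cKO libraries were close together, and WT replicate 3 was well above the other two. An internal start (49705806 to 49705885) held much of the difference, at 43.3, 39.7 and 44.6 FPKM in Hspa9 cKO, against 2.09 FPKM, not listed, and 31.1 FPKM in WT. At the first start (49682100 to 49682203) the levels were 32.1, 30.4 and 29.7 FPKM in Hspa9 cKO and 23.5, 31.5 and 18.5 FPKM in WT, and these overlapped. With the level taken from this start alone the log2 change was 0.34 (limma, adjusted p = 0.290). At the transcript end (49733659 to 49734267) the levels were 41.2, 37.4 and 41.3 FPKM in Hspa9 cKO and 32.0, 31.5 and 29.6 FPKM in WT, with no overlap. From ends the log2 change was 0.35 ± 0.07 (SE; limma, adjusted p = 0.0287). The direction held in each of these measures, while its size differed between them. The call from summed starts was lost on leaving out any 1 library but WT replicate 3, with adjusted p between 0.0670 and 0.0938.

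**Figure D3:**
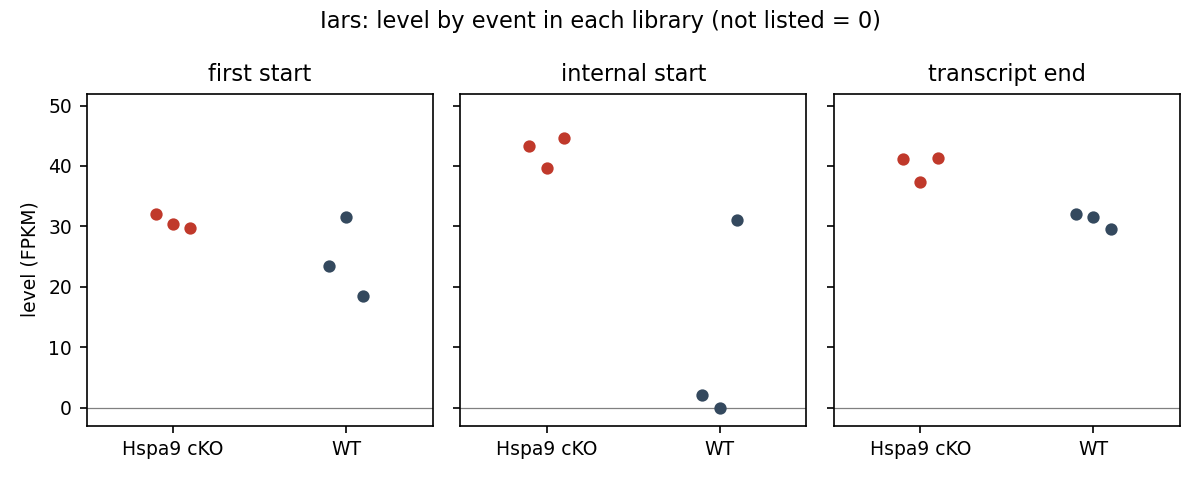
Level in FPKM of Iars at its first start, its internal start and its transcript end, in each of 3 Hspa9 cKO (left in each panel) and 3 WT (right) libraries, with an event that was not listed drawn at 0. At the transcript end the Hspa9 cKO libraries sit between 37.4 and 41.3 FPKM, above the WT libraries at 29.6 to 32.0 FPKM, while at the internal start WT replicate 3 stands apart from the other WT libraries.

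Hars2 (ENSMUSG00000019143; chromosome 18, 36783008 to 36792562, plus strand), the mitochondrial histidine enzyme, was the only mitochondrial gene called. It had 18.0, 17.9 and 15.3 FPKM in Hspa9 cKO and 9.39, 9.72 and 9.71 FPKM in WT, with a log2 change of 0.76 ± 0.09 (SE; limma, adjusted p = 0.00622). The 3 WT libraries were nearly equal, and each Hspa9 cKO library was higher by more than the spread of either group. Its cytosolic neighbour Hars (ENSMUSG00000001380; 36766528 to 36783205, minus strand) is read from the opposite strand. Hars had 32.1, 30.4 and 32.1 FPKM in Hspa9 cKO and 41.2, 35.0 and 41.2 FPKM in WT. All 3 Hspa9 cKO libraries lay below the WT libraries, but the gene was not called, with a log2 change of -0.30 ± 0.09 (SE; limma, adjusted p = 0.0777); it was called lower after rescaling by trimmed means (adjusted p = 0.0477) and without WT replicate 2 (adjusted p = 0.0437).

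The first exons of these 2 genes overlap by 112 bases, and the sources used here do not say whether counting used strand, so reads from the overlap may not be told apart. The ratio of Hars to Hars2 was 1.78, 1.70 and 2.10 in Hspa9 cKO and 4.39, 3.60 and 4.25 in WT. Transcript ends of Hars2 were listed at 0.0400 to 0.0467 FPKM in Hspa9 cKO and 0.0453 to 0.0509 FPKM in WT, so they gave no second measure of the gene. Among splicing events, the transcript form of Hars2 that retains an intron between 36787502 and 36788006 was at 3.36, 2.62 and 1.89 FPKM in Hspa9 cKO, against 0.689 FPKM in WT replicate 2 and no listing in the other WT libraries. The ratio of the retained to the spliced form was not called (log2 difference 1.36 ± 0.45 SE; limma, adjusted p = 0.482).

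The called genes were next set beside the gene for the same amino acid in the other compartment. Sars2, the mitochondrial serine enzyme, had 12.5, 14.0 and 13.6 FPKM in Hspa9 cKO and 14.4, 13.0 and 14.6 FPKM in WT (log2 change -0.06 ± 0.09 SE; limma, adjusted p = 0.668). Yars2, for tyrosine, had 11.6, 11.9 and 12.7 FPKM in Hspa9 cKO and 12.5, 13.8 and 12.9 FPKM in WT (log2 change -0.10 ± 0.08 SE; limma, adjusted p = 0.428). Neither partner was called, and the groups overlapped for both. Iars2, for isoleucine, had 14.8, 16.3 and 15.7 FPKM in Hspa9 cKO and 16.1, 17.2 and 16.2 FPKM in WT (log2 change -0.08 ± 0.08 SE; limma, adjusted p = 0.530). Cars2, for cysteine, had 23.3, 14.5 and 23.9 FPKM in Hspa9 cKO and 14.9, 16.3 and 18.1 FPKM in WT (log2 change 0.28 ± 0.20 SE; limma, adjusted p = 0.393). For Cars2, Hspa9 cKO replicate 2 fell below all 3 WT libraries, while Hspa9 cKO replicates 1 and 3 lay above them. Nars2, for asparagine, had 3.47, 3.17 and 3.07 FPKM in Hspa9 cKO and 1.72, 2.39 and 2.94 FPKM in WT, without overlap but not called (log2 change 0.35 ± 0.16 SE; limma, adjusted p = 0.191).

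Of 11 amino acids with both genes tested, the ratio of the cytosolic to the mitochondrial gene was higher in all 3 Hspa9 cKO libraries than in all 3 WT libraries for 4, lower for 1 and overlapping for 6. The ratio of Sars to Sars2 averaged 2.91 ± 0.27 in Hspa9 cKO and 1.78 ± 0.20 in WT, and that of Yars to Yars2 3.12 ± 0.22 in Hspa9 cKO and 1.87 ± 0.15 in WT (SD, n = 3 each). The ratio of Iars to Iars2 averaged 4.77 ± 0.36 in Hspa9 cKO and 2.20 ± 0.79 in WT, that of Cars to Cars2 1.05 ± 0.43 in Hspa9 cKO and 0.651 ± 0.078 in WT, and that of Hars to Hars2 1.86 ± 0.21 in Hspa9 cKO and 4.08 ± 0.42 in WT (SD, n = 3 each). For these 5 ratios an exact permutation test (two-sided) returned p = 0.1, the lowest possible with 3 against 3 libraries, and p = 0.22 after adjustment over the 11 pairs. The design therefore cannot put any of them under 0.05. Each of these 5 pairs holds a gene called above, so their count partly restates those calls. The ratio of Iars to Iars2 uses summed starts, and the uneven internal start of Iars held much of that difference. From its transcript end the log2 change of Iars was 0.35, against 1.07 from summed starts. No share over other pairs of genes was computed. In level per length, the cytosolic gene was above its partner in 10 of the 11 pairs, by up to 14.6-fold for Nars and Nars2, and Cars was the exception, at 0.833 times Cars2.

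**Figure D4:**
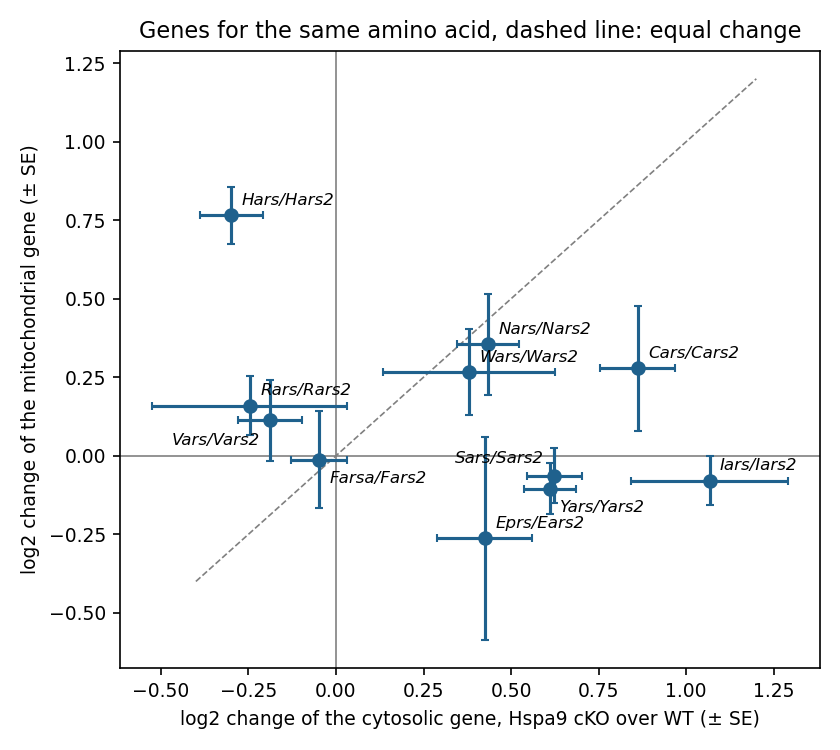
Log2 change of the cytosolic gene (horizontal) against that of the mitochondrial gene (vertical) for 11 amino acids, Hspa9 cKO over WT, each with its standard error; the dashed line marks equal change. Iars, Sars and Yars lie to the right of 0 with partners near 0. Hars with Hars2 lies farthest to the upper left, where Rars with Rars2 and Vars with Vars2 also lie, nearer to 0. The level of Vars here includes starts of its neighbour Lsm2.

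Enzymes that serve both compartments or 2 amino acids were not called. Kars (chromosome 8, 111993443 to 112011323, minus strand), the lysine enzyme whose gene makes both the cytosolic and the mitochondrial form, was at 76.1, 66.8 and 81.5 FPKM in Hspa9 cKO and 70.0, 74.7 and 86.8 FPKM in WT. These overlapped fully (log2 change -0.04 ± 0.11 SE; limma, adjusted p = 0.827). In human the mitochondrial form includes an exon that the cytosolic form skips. The matching mouse exon (112008207 to 112008386), in which the annotation places a separate start codon, was included in 43.3, 14.4 and 14.5% of Kars transcripts in Hspa9 cKO and in 14.6, 16.4 and 49.5% in WT. Hspa9 cKO replicate 1 and WT replicate 3 stood apart from the other libraries, and the groups overlapped.

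Gars (chromosome 6, 55038007 to 55079500, plus strand), the glycine enzyme of both compartments, had 73.4, 65.3 and 68.6 FPKM in Hspa9 cKO and 58.8, 58.8 and 51.9 FPKM in WT. Its libraries did not overlap, with a log2 change of 0.29 ± 0.08 (SE; limma, adjusted p = 0.0749). Eprs (chromosome 1, 185363044 to 185428360, plus strand), a fused enzyme for glutamate and proline, had 46.6, 57.1 and 47.7 FPKM in Hspa9 cKO and 44.1, 33.4 and 34.9 FPKM in WT. The lowest Hspa9 cKO library was just above WT replicate 1, and the log2 change was 0.42 ± 0.14 (SE; limma, adjusted p = 0.0919). Pars2, the mitochondrial proline enzyme, was the uncalled member nearest to the threshold. From summed starts it had 4.41, 5.76 and 4.71 FPKM in Hspa9 cKO and 3.06, 3.43 and 3.40 FPKM in WT (log2 change 0.47 ± 0.12 SE, limma, adjusted p = 0.0550). From its single highest start the log2 change was 0.013 (limma, adjusted p = 0.977). From transcript ends the change was 0.38 (limma, adjusted p = 0.267), and the groups overlapped. Ears2, the mitochondrial glutamate enzyme, had 3.51, 1.97 and 4.53 FPKM in Hspa9 cKO and 3.69, 2.76 and 6.27 FPKM in WT (log2 change -0.26 ± 0.32 SE; limma, adjusted p = 0.625). Its values spread widely in both groups, and replicate 2 was the lowest library of each.

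Of the 8 enzymes of the multi-synthetase complex, Iars alone was called higher, a share near the 8.40% of all genes tested. Of the 11 free cytosolic synthetases 4 were called higher, and the difference between these counts was not tested. The 8 complex enzymes had a median log2 change of 0.04, beside 0.29 for the free enzymes and 0.06 for all genes tested. The leucine enzyme Lars, also of the complex, had a log2 change of 0.29 ± 0.10 (SE; limma, adjusted p = 0.0990), with libraries that did not overlap, and from transcript ends it was called higher, at 0.45 (limma, adjusted p = 0.0468). Rars, for arginine, had 30.4, 32.6 and 15.2 FPKM in Hspa9 cKO and 29.0, 28.5 and 31.1 FPKM in WT. Its log2 change of -0.25 ± 0.28 (SE; limma, adjusted p = 0.593) rested on Hspa9 cKO replicate 3, and without that library it was 0.09. The other complex enzymes had log2 changes of 0.13 for Dars (aspartate), -0.13 for Qars (glutamine) and -0.19 for Mars (methionine), none of them called. The scaffold genes were not called either, at 0.26 for Aimp1, -0.38 for Aimp2 and 0.10 for Eef1e1 (limma, adjusted p = 0.615, 0.0817 and 0.706).

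Vars (chromosome 17, 35000987 to 35016322, plus strand), the valine enzyme, had the highest level found under its gene ID, at 76.8, 93.5 and 83.1 FPKM in Hspa9 cKO and 95.0, 92.1 and 101.1 FPKM in WT. The groups overlapped, with a log2 change of -0.19 ± 0.09 (SE; limma, adjusted p = 0.219). Of the 10 starts under this ID, 5 lie at exon edges of the neighbour Lsm2 and hold 37.6% of the summed FPKM. At its own first start Vars had 46.9, 45.8 and 40.3 FPKM in Hspa9 cKO and 48.0, 54.7 and 52.8 FPKM in WT. Placed by annotated exon edges, which leaves out the Lsm2 starts, Vars had a log2 change of -0.06 ± 0.14 (SE, limma, adjusted p = 0.792). The remaining free enzymes not called were Wars (tryptophan, log2 change 0.38), Tars (threonine, 0.27) and the subunits Farsb (0.08) and Farsa (-0.05) of the phenylalanine enzyme.

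Among the 13 mitochondrial genes found by gene ID, Aars2, for alanine, was the second most abundant after Cars2. It had 16.4, 14.9 and 19.5 FPKM in Hspa9 cKO and 16.9, 17.7 and 20.8 FPKM in WT (log2 change -0.12 ± 0.13 SE, limma, adjusted p = 0.577). The groups overlapped. The others had log2 changes of 0.27 for Wars2, 0.16 for Rars2, 0.11 for Vars2 and -0.01 for Fars2, none of them called, and of these the libraries were apart for Wars2 alone. For mitochondrial genes found by ID, mean levels over the 6 libraries ran from 2.79 FPKM for Nars2 to 18.5 FPKM for Cars2. For cytosolic genes found by ID, they ran from 15.4 FPKM for Cars to 90.3 FPKM for Vars, with the starts of its neighbour Lsm2. Lars2, placed by exon edges below, was above Cars2 in every library. Summed over the 19 cytosolic genes the level was 799, 833 and 804 FPKM in Hspa9 cKO and 689, 677 and 767 FPKM in WT. Summed over the 13 mitochondrial genes it was 148, 138 and 149 FPKM in Hspa9 cKO and 128, 131 and 137 FPKM in WT. Neither sum overlapped between groups, by a small margin for the mitochondrial genes. That margin does not hold without Hars2, at 17.9 FPKM in Hspa9 cKO replicate 2 and 9.71 FPKM in WT replicate 3. The mitochondrial sum also leaves out Lars2, Tars2 and Mars2, which were not found by ID.

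Of the 4 genes not found by their own ID, Aars, Lars2 and Tars2 had events listed under a neighbouring gene, and no event of Mars2 was found. Placed by annotated exon edges, Aars, for alanine, was at 8.37, 8.50 and 35.0 FPKM in Hspa9 cKO and 18.3, 7.87 and 15.6 FPKM in WT. Lars2, the mitochondrial leucine enzyme, was at 71.9, 81.0 and 94.0 FPKM in Hspa9 cKO and 77.2, 97.4 and 74.0 FPKM in WT. Tars2, the mitochondrial threonine enzyme, was at 23.8, 9.13 and 6.04 FPKM in Hspa9 cKO and 6.86, 27.5 and 10.6 FPKM in WT. All 3 overlapped between groups and none was called, with log2 changes of 0.06 ± 0.60, -0.01 ± 0.14 and -0.18 ± 0.63 (SE; limma, adjusted p = 0.96, 0.98 and 0.87).

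Transcript ends gave a second estimate for 26 members, from the same libraries and the same assembled transcripts. The direction was the same as from starts for 24 of the 26. A set of 5 cytosolic genes were called higher from ends, Cars, Iars, Lars, Nars and Sars, and 0 were called lower, beside 8.24% higher and 6.11% lower of 7027 genes tested from their ends. No end of Yars was listed, so its level from starts has no such counterpart. Of 69 ratios of spliced forms that could be tested in 20 synthetase genes, 0 were called and 5 had an unadjusted p under 0.05, while 0.189% of 10573 ratios were called over all genes.

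Of the 12 cytosolic synthetases often named as ATF4 targets, 11 were tested, and 5 were called higher and 0 lower, with a median log2 change of 0.42, beside 8.40% higher, 5.61% lower and a median of 0.06 over all genes tested. Of the 8 other cytosolic synthetases, limma called 0 in either direction, with a median of -0.09, and 1 (Hars) was lower at an unadjusted p under 0.05. Both lists share their libraries, and the difference between their counts was not tested. Of the 5 genes whose promoters are shown above, Iars and Yars were called, Gars and Tars were not, and Aars was not found by its ID. Sars was called and its promoter held no match. By catalytic fold, 3 of 16 class I and 3 of 15 class II genes were called higher, with medians of 0.14 and 0.13.

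Other ATF4 and CHOP targets, which are no synthetases, were set beside them. Of 27 in the list, 18 were tested, and limma called 12 higher and 0 lower (1 lower at an unadjusted p under 0.05), with a median log2 change of 0.94, beside 8.40% higher, 5.61% lower and a median of 0.06 over all genes tested. Of these, 3 (Chac1, Nupr1 and Trib3) passed the filter on low levels through Hspa9 cKO alone and so had to differ. Without them 9 of 15 were called higher, with a median of 0.73. Asns, which makes asparagine, had 17.8, 20.0 and 20.1 FPKM in Hspa9 cKO and 1.19, 1.18 and 0.973 FPKM in WT (log2 change 3.26 ± 0.10 SE; limma, adjusted p = 0.000178). Atf5, a transcription factor linked to mitochondrial stress, had 46.1, 53.1 and 49.8 FPKM in Hspa9 cKO and 4.81, 5.39 and 5.48 FPKM in WT (log2 change 3.02 ± 0.09 SE; limma, adjusted p = 0.000178). Neither gene's groups came near each other, whereas no synthetase gene reached a log2 change beyond that of Iars.

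Genes that handle transfer RNA around the charging step were called at shares near those of all genes tested, of which 8.40% were called higher and 5.61% lower, with a median log2 change of 0.06. Of 18 charging partners, 15 were tested, and limma called 0 higher and 1 lower, with a median log2 change of -0.13. At an unadjusted p under 0.05 in limma, 0 were higher and 3 lower. The gene called lower was Dtd1, which removes D-amino acids from mischarged transfer RNA, at 11.7, 13.0 and 13.1 FPKM in Hspa9 cKO and 17.6, 16.4 and 18.3 FPKM in WT (log2 change -0.44 ± 0.08 SE; limma, adjusted p = 0.0240). Of 22 genes of transfer RNA maturation and export, 20 were tested, with a median of -0.10. At an unadjusted p under 0.05 in limma, 3 of these were higher and 4 lower. Over all 9198 genes tested, 1754 were higher and 1131 lower at that threshold. All 3 Hspa9 cKO libraries lay below WT for 4 charging partners and 6 maturation genes, against 15.7% of all genes tested. They lay above WT for 0 and 3, against 23.2%. Elac1, a ribonuclease of the RNase Z family, was called higher, at 5.56, 5.15 and 4.03 FPKM in Hspa9 cKO and 2.74, 2.86 and 2.96 FPKM in WT (log2 change 0.61 ± 0.13 SE; limma, adjusted p = 0.0317). Osgep, of the complex that makes a modified base of transfer RNA, was called lower, at 11.4, 11.0 and 12.5 FPKM in Hspa9 cKO and 19.4, 22.2 and 16.0 FPKM in WT (log2 change -0.67 ± 0.13 SE; limma, adjusted p = 0.0250).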

How the data were processed

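RNA sequencing compared 3 Hspa9 cKO with 3 WT libraries of DN3 thymocytes, grouped by their titles. The authors deposited FPKM values per transcript-structure event, per the file headers; trimming used cutadapt 1.9.1 and the build was mm10, per the submitters' processing notes. The sources used here do not name the aligner, assembler, event caller or annotation. Messenger RNA was enriched by poly(A) selection or removal of ribosomal RNA, per the labels' protocols, which name both. An event's FPKM depends on how reads were divided among isoforms, and read depth is unknown.

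From these, each gene's starts (ends where no start was listed) were summed by gene ID after repeated event numbers were dropped. Levels and splice ratios (log2 of inclusion + 1 over exclusion + 1, mean total of at least 5 FPKM) were tested two-sided with limma 3.58.1 in R 4.3.3. Variances were robust for both and trended for levels alone. The test of levels was tried on simulated data. Ratios of gene pairs had an exact permutation test. Gene positions are from GENCODE M21, of the same build. The members and lists were chosen with earlier results of these data known. One marker gene is not reported here. Full values were given for called members, in each compartment the 2 most abundant and the 2 with the largest and smallest change, partners of called genes, Kars, Gars and Eprs; Lars, Mars2 and the genes placed by exon edges were added after their values were seen.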

Additional observations from a re-analysis of the deposited data

How the results depend on the processing

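Among 20 named synthetase genes under 11 other settings, 207 of 216 values kept their direction and their side of the threshold, 7 lost a call, 2 gained one and 0 changed direction; Nars2, Ears2 and Pars2 were not tested at a filter of 5 FPKM, nor Hars2 from ends. The settings were a replicate block, no filter, a filter at 5 FPKM, a pseudocount of 0.1, 2 rescalings, transcript ends, exon edges, a length and GC trend removed, limma without trended and robust variances, and the single highest start, which was added after the data were seen. Some of this agreement was fixed in advance. The replicate block, the filter settings and limma without trended and robust variances cannot alter a log2 change. Exon edges gave the same levels as starts for all named genes but Vars. Yars and Eprs had no listed ends, so their starts were used again. For Cars, Hars, Kars, Rars, Sars, Cars2, Iars2 and Sars2 the single highest start equalled the summed starts. The shared replicate numbers are not stated to pair libraries, and same-numbered deviations correlated at 0.02, -0.02 and -0.02. With the replicate block all 6 calls were lost, at adjusted p between 0.0502 and 0.0969, leaving 0 cytosolic and 0 mitochondrial genes called higher, and 161 genes were called higher and 84 lower over all genes. The other 10 settings lost only Iars, from its single highest start (0.34, adjusted p = 0.290). They gained Hars as lower with trimmed means (1 cytosolic gene lower) and Pars2 with limma without trended and robust variances (2 mitochondrial genes higher). From ends 0 mitochondrial genes were called higher.

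The median of the mitochondrial genes, 0.11, was -0.012 at a filter of 5 FPKM, 0.052 with trimmed means, 0.060 with median ratios, -0.0079 from ends, -0.0077 from exon edges, and 0.013 from the single highest start. Rescaling by trimmed means took the median of all genes from 0.06 to 0.00 and the calls to 610 higher and 696 lower, against 773 and 516; median ratios gave 616 and 666. Leaving out each library in turn gave 233 to 514 genes higher and 202 to 323 lower, 3 to 4 cytosolic genes higher and 0 to 1 lower, 1 mitochondrial gene higher and 0 lower, and medians of 0.17 to 0.23 for cytosolic and 0.08 to 0.14 for mitochondrial genes. Cars, Sars, Yars and Hars2 kept their calls each time. On leaving out a library the change of Kars ran from -0.11 to 0.043 (positive without WT replicate 3 or Hspa9 cKO replicate 2), that of Rars from -0.437 to 0.087 (positive without Hspa9 cKO replicate 3) and that of Ears2 from -0.474 to 0.0011 (positive without WT replicate 3), and none was called. The cause of these differences was not tested. Without counts, low genes such as Nars2 and Ears2 have unknown precision.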
